A study of Mus musculus with 16 samples.

Results

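The 9 genes described here form the R-spondin branch of Wnt signalling: the receptors Lgr4, Lgr5 and Lgr6, the ligands Rspo2 and Rspo3, the ubiquitin ligases Znrf3 and Rnf43, and the feedback genes Axin2 and Dact1. They were taken by name, by matching the Ensembl identifier of each row of the gene table to its symbol, and each was found in 1 of 53333 rows. The genes were chosen by function with earlier gene-level results of these libraries in view. Lgr6 had been selected on its difference between the control and RBM45 KO lines, and its WT and rescue levels were known, so comparisons of Lgr6 that use the control clones as a group are descriptions, with no test and outside every count of members passing, as is rescue against RBM45 KO. All libraries came from mHiPPoE-2, a transformed mouse hippocampal neuron line of strain Crl:CFW(SW)-024, grown without treatment. Total RNA was depleted of ribosomal RNA and sequenced.

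There were 16 libraries from 8 lines, 2 libraries a line. WT was the unedited line. METTL3 KO was made with guided Cas9 and kept as 1 clone. The 2 control clones had received Cas9 with no guide RNA, and the 2 RBM45 KO clones had received Cas9 with a guide. The 2 rescue clones were RBM45 KO cells that also carried F-HA-tagged RBM45_mut[delta]gRNA. METTL3 is the catalytic subunit of the enzyme that writes N6-methyladenosine into RNA, and RBM45 is an RNA-binding protein. Every edited line was a clone, so with 1 METTL3 KO clone the deletion and the clone cannot be told apart. The labels do not say whether the libraries of a line came from separate cultures, so p-values over libraries measure only the spread between them, which may be technical. The table's names for the control columns match no label, and they were taken as control because the other 12 columns match the other groups. The clone and library numbers used below are names, and the labels do not say that they pair anything across groups.

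R-spondins are secreted proteins that bind the receptors Lgr4, Lgr5 and Lgr6 together with Znrf3 or Rnf43. Znrf3 and Rnf43 are membrane ubiquitin ligases that remove Frizzled receptors from the cell surface, and R-spondin binding takes these ligases away, which raises Wnt receptor levels. Axin2, a scaffold of the β-catenin destruction complex and a direct target of Wnt signalling, and Dact1, which binds Dishevelled, act further inside the cell.

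Promoter windows are shown for 4 members because 3 of them (Axin2, Dact1 and Lgr6) carried large differences between lines and the fourth, Lgr4, varied less. RefSeq promoter windows (GRCm38.p6) were matched for 5 of the 9 members, and each sequence below is the 250 bases just before the annotated start, written 5′ to 3′ on the gene's own strand. Capitals mark CG dinucleotides. The windows lie at chr11:108920099-108920348 on the plus strand (Axin2), chr12:71309634-71309883 on the plus strand (Dact1), chr1:135105277-135105526 on the minus strand (Lgr6) and chr2:109917397-109917646 on the plus strand (Lgr4).
Axin2: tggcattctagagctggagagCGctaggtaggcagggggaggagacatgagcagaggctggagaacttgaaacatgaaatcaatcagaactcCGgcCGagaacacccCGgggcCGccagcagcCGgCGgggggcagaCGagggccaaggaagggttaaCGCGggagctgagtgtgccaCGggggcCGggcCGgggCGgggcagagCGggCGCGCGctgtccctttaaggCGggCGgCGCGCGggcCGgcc
Dact1: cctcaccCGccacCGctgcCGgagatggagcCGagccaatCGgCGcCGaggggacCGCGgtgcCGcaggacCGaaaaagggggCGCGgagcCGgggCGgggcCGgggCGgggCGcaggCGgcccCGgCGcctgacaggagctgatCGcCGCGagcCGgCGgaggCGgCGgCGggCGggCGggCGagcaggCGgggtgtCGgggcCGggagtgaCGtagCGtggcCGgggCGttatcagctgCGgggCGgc
Lgr6: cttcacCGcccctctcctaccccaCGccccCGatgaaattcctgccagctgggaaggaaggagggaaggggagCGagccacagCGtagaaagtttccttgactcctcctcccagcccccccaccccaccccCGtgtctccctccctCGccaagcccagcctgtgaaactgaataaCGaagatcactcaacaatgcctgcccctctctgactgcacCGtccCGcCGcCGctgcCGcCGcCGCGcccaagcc
Lgr4: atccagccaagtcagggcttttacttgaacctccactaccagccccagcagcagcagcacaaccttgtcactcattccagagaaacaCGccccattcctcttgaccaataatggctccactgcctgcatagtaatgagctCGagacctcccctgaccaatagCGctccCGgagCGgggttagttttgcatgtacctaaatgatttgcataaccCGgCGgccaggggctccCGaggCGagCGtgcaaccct

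Dact1 had the densest window, with 41 CG dinucleotides and 80.4% G and C. Axin2 had 24 and 69.2%, Lgr6 had 16 and 65.2%, and Lgr4 had 10 and 55.6%, beside medians of 6 and 52.4% over all windows in the table. The core of the TCF/LEF motif, CTTTG, was searched on both strands (CAAAG on the other). It was in 48.6% of 32851 windows and in 0 of the member windows, which says only that these letters are not in these 250 bases.

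Levels are given as CPM, fragment counts over the whole gene body, introns included, scaled to a common library size by edgeR's TMM method. Library totals ran from 7193908 to 18751324, with a median of 12883429, and 12 rows took 53.3% to 70.6% of each. Between libraries of a line, log2 CPM correlated least in WT (r = 0.957 across genes) and at 0.970 or more in the other lines. Rbm45 was at 14.7 ± 1.90 CPM in control (SD, n = 4), 8.04 ± 2.08 in RBM45 KO (n = 4) and 23.2 ± 2.05 in rescue (n = 4), and these ranges did not overlap. Mettl3 was at 3.53 ± 0.255 CPM in METTL3 KO (n = 2) and 10.2 ± 2.03 in WT (n = 2).

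The labelled cell type was checked against marker lists. Of 10 neuron markers, Map2 (84.1 CPM) and Tubb3 (1.33 CPM) were above 1 CPM on average, and Nefl, Dcx and Stmn2 were at 0 in all 16 libraries. Of 5 matched hippocampal neuron markers, Lhx2 (27.5 CPM on average, 20.2 or more in every library) and Prox1 (1.01 CPM) were above 1 CPM, Emx1 was near 0, and Neurod2 and Neurod6 were at 0 in all libraries. All 6 matched mesenchymal markers were above 1 CPM, as were 3 of 5 neural progenitor markers and 0 of 4 epithelial markers. Of the progenitor markers, Nes averaged 246 CPM, while Hes5 and Fabp7 were near 0. Markers of other cell types above 1 CPM were Cspg4 (oligodendrocyte, 71.9 CPM), Cx3cr1 and Csf1r (microglia, 38.0 and 4.29) and Slc1a3 (astrocyte, 4.58). The remaining oligodendrocyte, microglia and astrocyte markers and all 4 endothelial markers were below 1 CPM. The summed mesenchymal level was 951 to 962 CPM in METTL3 KO, 1054 to 1388 in WT, 1415 to 2596 in control, 1958 to 3286 in RBM45 KO and 1536 to 2024 in rescue. The summed neural progenitor level was 148 to 173 CPM in METTL3 KO, below 303 to 305 in WT, 253 to 370 in control, 318 to 362 in RBM45 KO and 238 to 360 in rescue. Both sums moved with the lines compared below, and their part in the member differences was not tested. In bulk RNA, fewer cells of a type and less RNA per cell cannot be told apart.

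**Figure D1:**
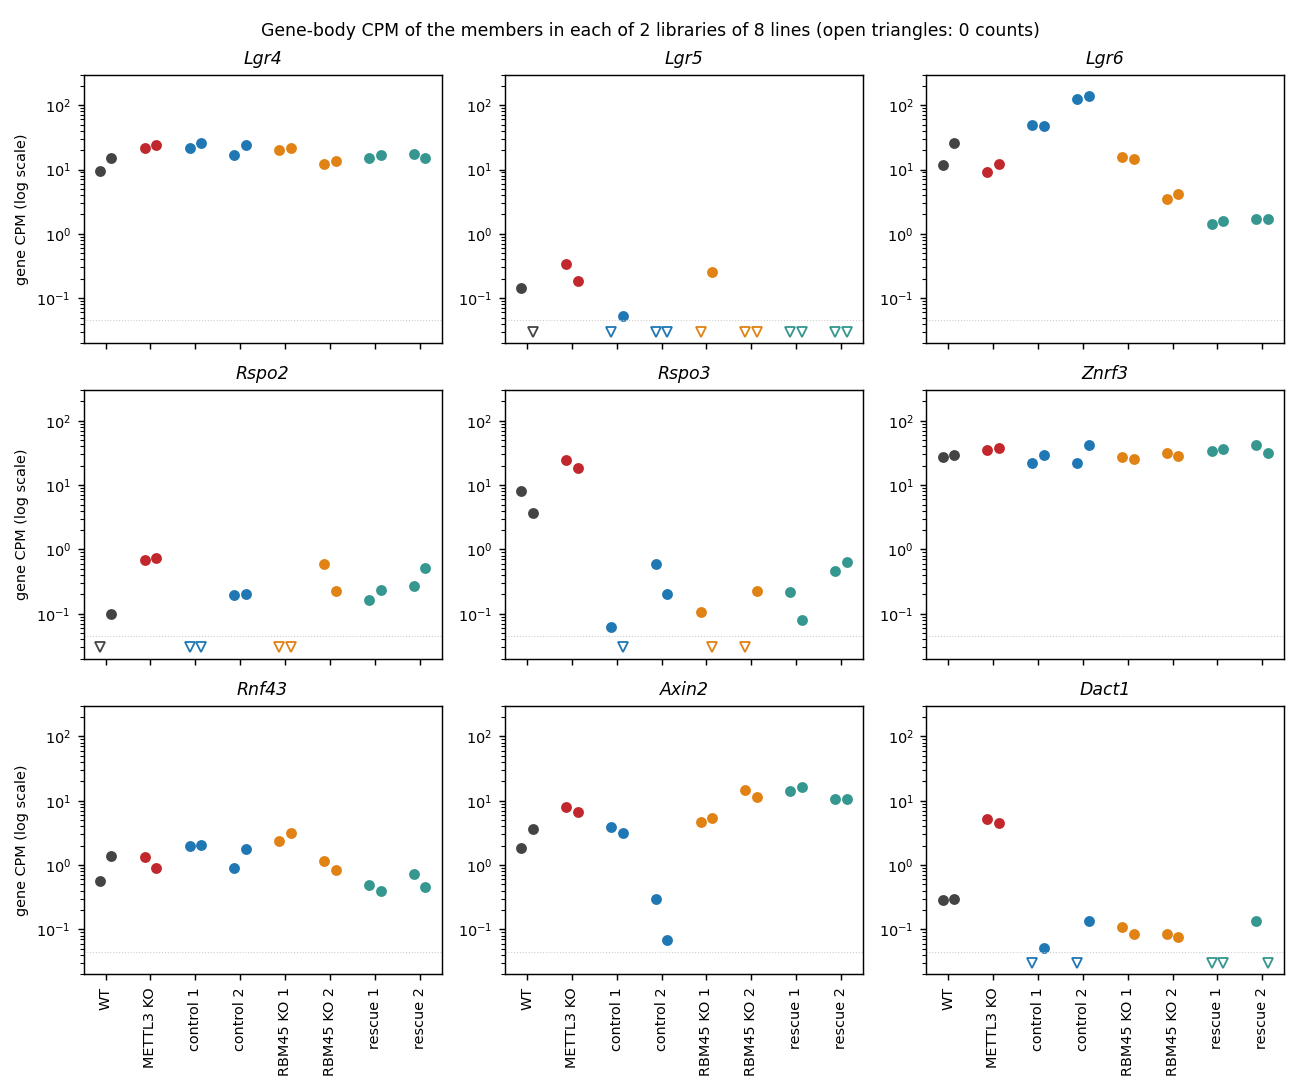
Gene-level CPM of the 9 members (log axis) in each of the 16 libraries, by line. Each point is 1 library, and open triangles below the dotted line mark libraries with 0 counts. Lgr6 ran from 1.43 to 137 CPM, Rspo3 and Dact1 were high in METTL3 KO, and Znrf3 ran only from 22.4 to 42.4 CPM.

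Exon counts divided by exon length allow a rough comparison of levels between members. A read that touches 2 bins is counted in each, and every annotated bin adds to the length. On this scale (exon CPM per kb), Lgr6 had the highest value of the set, 13.7 in control. The highest mean of Lgr4 was 2.86, also in control, and that of Rspo3 was 3.06, in METTL3 KO. Axin2 reached 2.49 in rescue, Dact1 1.64 in METTL3 KO and Znrf3 1.52 in RBM45 KO. Rnf43 did not exceed 0.251 in any group, and Rspo2 and Lgr5 were at 0.051 or less. Over the 5 groups the mean of Lgr4 spanned 1.82 to 2.86 and that of Znrf3 1.20 to 1.52 exon CPM per kb, while Lgr6 spanned 0.215 to 13.7.

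Lgr4 (chr2:109917647-110014257, plus strand, GRCm38), the most widely expressed of the R-spondin receptors, was present in every library. It was at 9.36 and 15.4 CPM in WT, 21.8 and 23.9 in METTL3 KO, 21.8 and 25.5 in control clone 1, and 16.7 and 24.4 in control clone 2. It was at 20.2 and 21.7 CPM in RBM45 KO clone 1, 12.2 and 13.5 in clone 2, 15.2 and 16.8 in rescue clone 1, and 17.4 and 15.3 in rescue clone 2. WT and RBM45 KO clone 2 were the lowest lines and overlapped each other. In the order of the lines, only METTL3 KO stood apart from RBM45 KO clone 1 below it and rescue clone 1 from RBM45 KO clone 2 below it. All other neighbours overlapped.

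Lgr5 (chr10:115450311-115587780, minus strand), the receptor known as a stem cell marker in gut and hair follicle, was barely counted. It had 11 counts in all 16 libraries, at most 0.338 CPM, and 0 counts in 11 of them. It was left out of every test by the filter on low counts. METTL3 KO had 6 of the counts, WT and control 1 each, RBM45 KO 3 and rescue 0. The ratio of METTL3 KO to WT, 4.02 with a 95% interval of 0.488 to 185 from counting error alone, covered 1.

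Lgr6 (chr1:134983301-135105276, minus strand), the receptor known from skin, showed the widest range among the receptors. It was at 11.8 and 25.9 CPM in WT, 9.23 and 12.01 in METTL3 KO, 49.0 and 47.3 in control clone 1, and 124 and 137 in control clone 2. It was at 15.7 and 14.4 CPM in RBM45 KO clone 1, 3.44 and 4.17 in clone 2, 1.43 and 1.59 in rescue clone 1, and 1.68 and 1.73 in rescue clone 2. All 4 control libraries were above all other libraries, and all 4 rescue libraries were below them. Every neighbouring pair of lines stood apart except WT and RBM45 KO clone 1. The group means were 89.4 ± 48.0 CPM in control (SD, n = 4), 9.43 ± 6.52 in RBM45 KO (n = 4) and 1.61 ± 0.13 in rescue (n = 4). Within these groups the spread lay between the clones, with the 2 libraries of each clone close together, while the WT libraries, at 18.8 ± 9.95 CPM (n = 2), differed more from each other.

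Rspo2 (chr15:43020794-43170826, minus strand), a secreted R-spondin, was near the limit of counting, with 52 counts in all. It was at 0.675 and 0.731 CPM in METTL3 KO and at 0 and 0.0999 in WT. Among the other lines the highest values were 0.587 CPM in RBM45 KO clone 2 and 0.513 in rescue clone 2, while control clone 1 and RBM45 KO clone 1 had 0 counts in all 4 libraries. The METTL3 KO libraries were above every other library.

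Rspo3 (chr10:29452416-29535867, minus strand), the other R-spondin with counts to compare, separated WT and METTL3 KO from the remaining lines. It was at 8.06 and 3.70 CPM in WT and 24.6 and 18.3 in METTL3 KO. All 12 libraries of the control, RBM45 KO and rescue clones were at 0.641 CPM or less, and 3 of them had 0 counts. METTL3 KO was therefore the only Cas9-treated line here with Rspo3 above WT. Rspo3 overlaps the predicted genes Gm20276 on its own strand and Gm48159 on the other, and the library kit did not keep strand, so reads of the antisense neighbour cannot be separated.

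Znrf3 (chr11:5276324-5444847, minus strand), the better measured of the ligases with 6668 counts, varied least. It was at 27.2 and 29.1 CPM in WT, 34.8 and 38.2 in METTL3 KO, 22.4 and 29.7 in control clone 1, and 22.4 and 42.4 in control clone 2. RBM45 KO clones ran from 25.4 to 31.5 CPM and rescue clones from 31.2 to 41.9. Every neighbouring pair in the order of the 8 lines overlapped, and the libraries of control clone 2 alone spanned the range of all lines.

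Rnf43 (chr11:87662722-87735539, plus strand), the related ligase, had 267 counts. It was at 0.576 and 1.40 CPM in WT, 1.35 and 0.914 in METTL3 KO, 1.99 and 2.04 in control clone 1, and 0.895 and 1.77 in control clone 2. It was at 2.37 and 3.19 CPM in RBM45 KO clone 1, 1.17 and 0.834 in clone 2, 0.497 and 0.397 in rescue clone 1, and 0.738 and 0.449 in rescue clone 2. The 4 rescue libraries were below all control and RBM45 KO libraries and overlapped WT. Rnf43 shares its strand with the overlapping gene 1110028F11Rik, so gene-body counts may be split between them. Over its exons alone, Rnf43 was at 0.0894 CPM in rescue on average, beside 1.65 in RBM45 KO and 1.43 in control.

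Axin2 (chr11:108920349-108950783, plus strand) differed between lines more than the ligases did. It was at 1.87 and 3.70 CPM in WT, 7.99 and 6.71 in METTL3 KO, 3.93 and 3.19 in control clone 1, and 0.298 and 0.0679 in control clone 2. It was at 4.62 and 5.35 CPM in RBM45 KO clone 1, 14.5 and 11.6 in clone 2, 14.02 and 16.3 in rescue clone 1, and 10.7 and 10.8 in rescue clone 2. All RBM45 KO, rescue and METTL3 KO libraries were above all control and WT libraries, and control clone 2 was lowest. Axin2 overlaps the antisense gene Gm11670, which had 155 counts beside 1576 for Axin2.

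Dact1 (chr12:71309884-71320107, plus strand) was counted almost only in METTL3 KO. It was at 5.18 and 4.57 CPM there and at 0.288 and 0.300 in WT. The 12 libraries of the other lines were at 0.136 CPM or less, and 5 of them had 0 counts. METTL3 KO held 121 of its 135 counts. Dact1 overlaps the antisense gene 4930474H06Rik, which had 78 counts, and without strand reads of both cannot be told apart.

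The comparison of METTL3 KO with WT asks how the members differ when Mettl3 is cut in 1 clone. Rspo3 was 1.91 ± 0.32 higher on the log2 scale (SE; adjusted p = 0.000578), and Axin2 1.32 ± 0.27 higher (adjusted p = 0.00251), by the quasi-likelihood test of edgeR, with p adjusted by Benjamini-Hochberg over 16223 genes. Lgr4 was higher by 0.86 ± 0.20 (adjusted p = 0.00609 by the same edgeR test) and Lgr6 lower, at -0.84 ± 0.24 (adjusted p = 0.0174 by edgeR). Znrf3 at 0.37 ± 0.22 (edgeR adjusted p = 0.240) and Rnf43 at 0.05 ± 0.49 (edgeR adjusted p = 0.950) did not pass. Of these 6 members 4 passed, 3 higher and 1 lower, where 22.9% of all genes passed, 11.2% higher and 11.8% lower. Lgr6 is among the 4, and its WT level was known when it was chosen.

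Dact1 and Rspo2 met the low-count filter only through METTL3 KO, whose 2 libraries alone reached its cutoff of 0.776 CPM on unscaled library totals, so they had to differ there and are given without a test. Dact1 was 4.0 ± 0.54 higher in METTL3 KO than in WT on the log2 scale (SE). Rspo2 had 18 counts against 1, a ratio of 12.1 with a 95% counting interval of 1.91 to 503.

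Not all of the calls held when a library was left out. Lgr4 lost its call without WT library 1 (0.57, adjusted p = 0.0809 by edgeR), without METTL3 KO library 2 (0.78, adjusted p = 0.0630 by edgeR) and over exon bins alone (0.32, adjusted p = 0.334 by edgeR). Lgr6 lost its call without WT library 2 (-0.13, adjusted p = 0.749 by edgeR), without METTL3 KO library 1 (-0.68, adjusted p = 0.128 by edgeR) and with only the 4 libraries of both lines (-0.85, adjusted p = 0.104 by edgeR). For Lgr6 the lower WT library, at 11.8 CPM, lay just under the higher METTL3 KO library, at 12.01, so the lines overlapped.

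Beside control, METTL3 KO differed in 2 of the 5 members with a test, where 30.6% of all genes passed. The 2 METTL3 KO comparisons share the METTL3 KO libraries. Rspo3 was higher by 7.48 ± 0.42 on the log2 scale and Axin2 by 3.22 ± 0.29 (edgeR adjusted p = 2.16e-07). Rspo3 is among the 2, but it met the low-count filter only through METTL3 KO and WT. It had to differ from control, so its p is not given. The size for Axin2 depends on control clone 2, which had only 3 counts and 1. Axin2 averaged 7.35 CPM in METTL3 KO, 3.56 in control clone 1 and 0.183 in control clone 2. Over exons, the log2 ratio of mean CPM was 1.88. The SE and p do not cover this spread between the control clones. Without a test, for the reason given above, Rspo2 was 4.0 ± 0.77 higher on the log2 scale (SE), and Dact1 had 121 counts against 3, a ratio of 95.7 with a counting interval of 32.0 to 470. Lgr6 was at 10.6 ± 1.97 CPM in METTL3 KO (SD, n = 2) and 89.4 ± 48.0 in control (n = 4), given with no test because its control level took part in its selection. Lgr4 (0.05 ± 0.16), Znrf3 (0.32 ± 0.19) and Rnf43 (-0.62 ± 0.37) did not pass, with edgeR adjusted p of 0.850, 0.206 and 0.219. Without control clone 2 library 2, Znrf3 passed, at 0.59 (edgeR adjusted p = 0.00479).

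Cas9 control clones and the unedited line differed as well, in 3 of the 7 members with a test, where 8.99% of all genes passed. This comparison shares its libraries with those above. Rspo3 was lower in control, at -5.57 ± 0.53 on the log2 scale, and Lgr4 was higher by 0.81 ± 0.18 (edgeR adjusted p = 0.00869). Rspo3 is among the 3, but its p is not given, because it met the low-count filter only through WT and METTL3 KO. Axin2 was lower, at -1.90 ± 0.38 (edgeR adjusted p = 0.00358), but this depends on control clone 2, at 0.183 CPM on average. Control clone 1, at 3.56 CPM, overlapped WT and had a higher mean than WT, at 2.78. Over exons, the log2 ratio of mean CPM was -0.75. The SE and p do not cover this spread between the control clones. Lgr6 has the levels given above and no test. Dact1 had 3 counts in control against 5 in WT, a ratio of 0.170 with a counting interval of 0.0263 to 0.872 (edgeR adjusted p = 0.139). The Lgr4 call was lost without WT library 1 (0.53, edgeR adjusted p = 0.215) and the Axin2 call without WT library 2 (-1.26, edgeR adjusted p = 0.118).

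**Figure D2:**
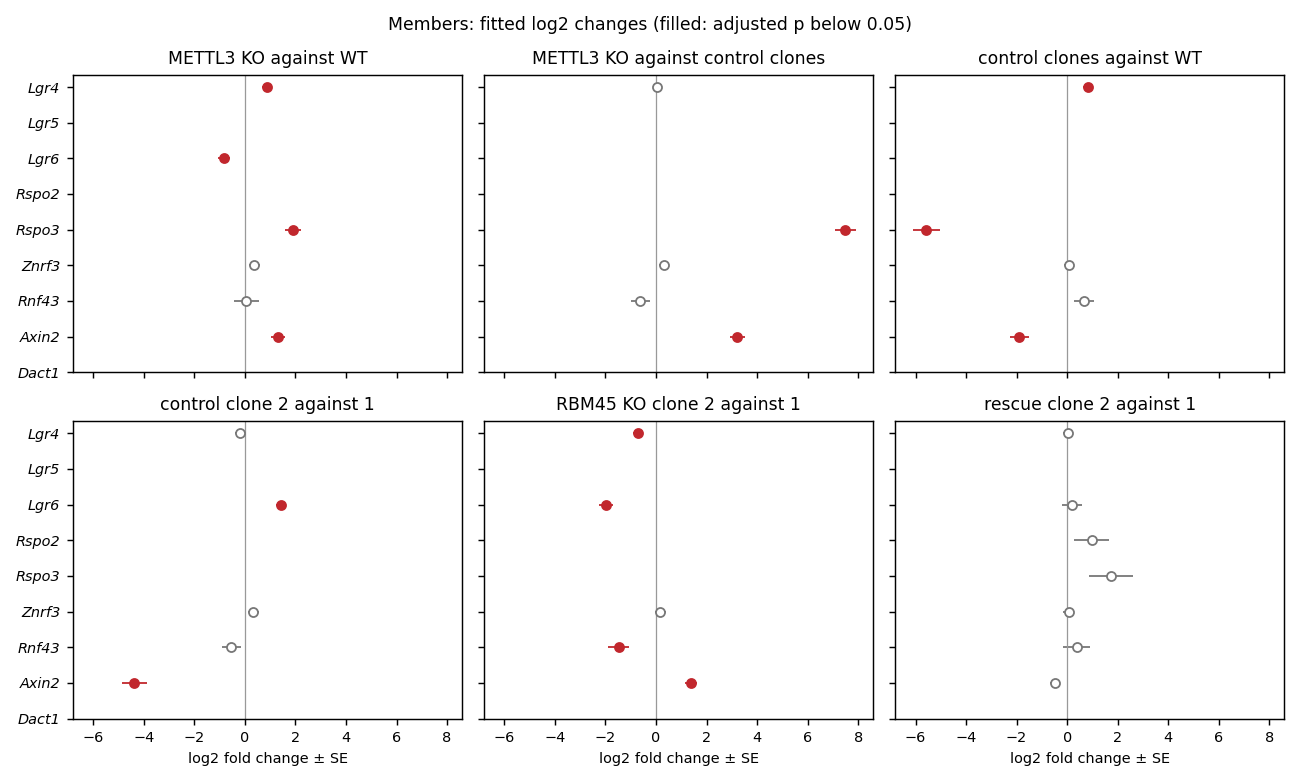
Log2 change of each tested member (x axis, point with SE) in 6 comparisons, filled where the edgeR adjusted p is below 0.05. Members with 3 counts or fewer in a group, Lgr6 in comparisons that use the control clones as a group, and Dact1 and Rspo2 in METTL3 KO comparisons are not drawn. Rspo3 and Axin2 lie to the right in both METTL3 KO comparisons, and Znrf3 lies between 0.05 and 0.37 in the 6 comparisons drawn. Rspo3 is drawn beside control although it met the low-count filter only through METTL3 KO and WT. Lgr6 is drawn between control clones and between RBM45 KO clones although those levels took part in its selection.

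RBM45 KO, rescue and control were compared with the clone as the unit, after adding the 2 libraries of each clone, so that 2 clones stood against 2 with 3 residual degrees of freedom. Axin2 was at 9.02 ± 4.82 CPM in RBM45 KO, 12.9 ± 2.72 in rescue and 1.87 ± 1.97 in control (SD, n = 4 libraries each). Between RBM45 KO and control this was 2.25 ± 1.02 on the log2 scale (edgeR adjusted p = 0.754), between rescue and control 2.74 ± 1.03 (edgeR adjusted p = 0.299), and between rescue and RBM45 KO 0.49 ± 0.94 (edgeR adjusted p = 0.894). Much of the spread lay between clones of the same genotype, with control clone 2 far below control clone 1. Rnf43 was lower in rescue, at -1.87 ± 0.56 against RBM45 KO (edgeR adjusted p = 0.662) and -1.72 ± 0.56 against control (edgeR adjusted p = 0.280), and neither passed.

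Lgr4 and Znrf3 did not pass in any of these comparisons. For RBM45 KO against control, Lgr4 was at -0.41 ± 0.24 and Znrf3 at -0.11 ± 0.17 (edgeR adjusted p = 0.755 and 0.891). For rescue against RBM45 KO they were at -0.09 ± 0.24 and 0.33 ± 0.17 (edgeR adjusted p = 0.926 and 0.676). For rescue against control they were at -0.50 ± 0.24 and 0.22 ± 0.17 (edgeR adjusted p = 0.369 and 0.557). Rspo2, Rspo3, Dact1 and Lgr5 did not meet the low-count filter among these 6 clones. By edgeR, 0 of the 4 members with a test passed in RBM45 KO against control, where 0% of 16867 genes passed and 983 (5.83%) had an unadjusted p below 0.05, as did 0 of these members. In rescue against RBM45 KO, 0 of 4 passed by edgeR, with 1 member at an unadjusted p below 0.05, and 0% of all genes passed. Rescue against control gave 0 of 4 by edgeR, with 2 members at an unadjusted p below 0.05, and again 0% of all genes. DESeq2 called 0 of these members in each of the 3 comparisons. Rbm45 itself did not pass by edgeR, at -0.88 ± 0.20 in RBM45 KO against control (edgeR adjusted p = 0.754). In rescue against RBM45 KO it was at 1.53 ± 0.20 (edgeR adjusted p = 0.662). With so few clones, 0 passing therefore does not show that the members were unchanged.

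With the library as the unit, which treats the 2 libraries of a clone as independent, more members passed the edgeR test. For RBM45 KO against control 2 of 7 members passed, where 15.5% of all genes did, with Axin2 at 3.37 and Lgr4 at -0.43 (edgeR adjusted p = 1.01e-07 and 0.0380). For rescue against RBM45 KO 2 of 7 passed, where 18% of all genes did, with Axin2 at 0.65 and Rnf43 at -1.67 (edgeR adjusted p = 0.00568 and 0.00221). For rescue against control 4 of 7 passed, Lgr4, Rspo2, Rnf43 and Axin2, where 34.3% of all genes did. These p-values cover the spread between libraries of a clone and not that between clones.

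Clones of 1 genotype differed from each other in several members. Between the control clones 3 of 8 tested members passed by edgeR, where 19.6% of all genes did. Lgr6 is among the 3, but its control levels took part in its selection, so its p is not given. In control clone 2, Lgr6 was higher by 1.44 ± 0.20 on the log2 scale and Axin2 lower, at -4.37 ± 0.48 (edgeR adjusted p = 4.84e-06). Rspo2 had 5 counts there against 0, at least 2.37-fold higher against a floor of 3 counts over the clone (edgeR adjusted p = 0.0433), and this call was lost in 12 of 18 alternatives. Without control clone 2 library 1, Znrf3 passed as well, at 0.69 (edgeR adjusted p = 0.0144).

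Between the RBM45 KO clones 5 of 8 tested members passed by edgeR, where 14.1% of all genes did. Lgr6 is among the 5, but its RBM45 KO levels took part in its selection, so its p is not given. Axin2 was higher in clone 2 by 1.38 ± 0.23 (edgeR adjusted p = 0.000315), while Lgr6 was lower at -1.97 ± 0.27. Rnf43 was lower at -1.48 ± 0.40 (edgeR adjusted p = 0.0174) and Lgr4 at -0.71 ± 0.20 (edgeR adjusted p = 0.0210). Rspo2, with 10 counts against 0, was at least 2.77-fold higher in clone 2 (edgeR adjusted p = 0.0257), and its call was lost in 4 of 19 alternatives. The Lgr4 call was lost on leaving out any of the 4 libraries (edgeR adjusted p from 0.0616 to 0.150). The Rnf43 call was lost on leaving out RBM45 KO clone 1 library 2 (-1.24), clone 2 library 1 (-1.74) or clone 2 library 2 (-1.25), and with DESeq2 (adjusted p = 0.0833).

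The rescue clones were the most alike pair. By edgeR 0 of 8 tested members passed, with 1 at an unadjusted p below 0.05 and 0 by DESeq2, where 2.29% of all genes passed. The member with the low unadjusted p was Axin2, at -0.49 ± 0.19 in clone 2 (edgeR adjusted p = 0.293). Lgr6 differed by 0.18 ± 0.40 (edgeR adjusted p = 0.938) and Znrf3 by 0.06 ± 0.21 (edgeR adjusted p = 0.965). In the control pair and in the RBM45 KO pair alike, the clone with the lower Lgr6 had the higher Axin2, by the values above.

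Exon and intron counts were then taken apart. For Lgr4 the intron level was 4.03 and 7.19 CPM in WT and 14.4 and 15.7 in METTL3 KO, without overlap. Its exon level was 8.49 and 12.98 CPM in WT and 10.9 and 13.5 in METTL3 KO, which overlap. The METTL3 KO to WT difference on the log2 scale was thus 1.42 over introns and 0.18 over exons. The same order held for Znrf3 (0.56 over introns, -0.31 over exons), Rspo3 (2.11 and 1.47), Axin2 (1.79 and 1.14) and Lgr6 (-0.39 and -0.98). Rnf43 (-0.28 and -0.15) and Dact1 (2.87 and 3.82) had the reverse order, from 31 and 14 intron counts. Over 8553 genes with enough counts, the intron difference was above the exon difference for 88.5%, with a median gap of 0.52. The order of Lgr4 is thus that of most genes in these libraries.

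Between RBM45 KO and control, Lgr6 was lower over exons (-3.29) and introns (-3.45) alike, and Axin2 higher over both (2.25 and 2.08). Lgr4 was at -0.27 over exons and -0.49 over introns, and Znrf3 at 0.09 and -0.09. Across all 8553 genes the intron difference was above the exon difference for 25.7%. Between rescue and RBM45 KO, Lgr6 was at -2.71 over exons and -2.03 over introns, Axin2 at 0.35 and 0.83, and Znrf3 at -0.15 and 0.48. There the intron difference was above the exon difference for 92.9% of genes, with a median gap of 0.42. These exon and intron values are ratios of mean CPM, given without a test.

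**Figure D3:**
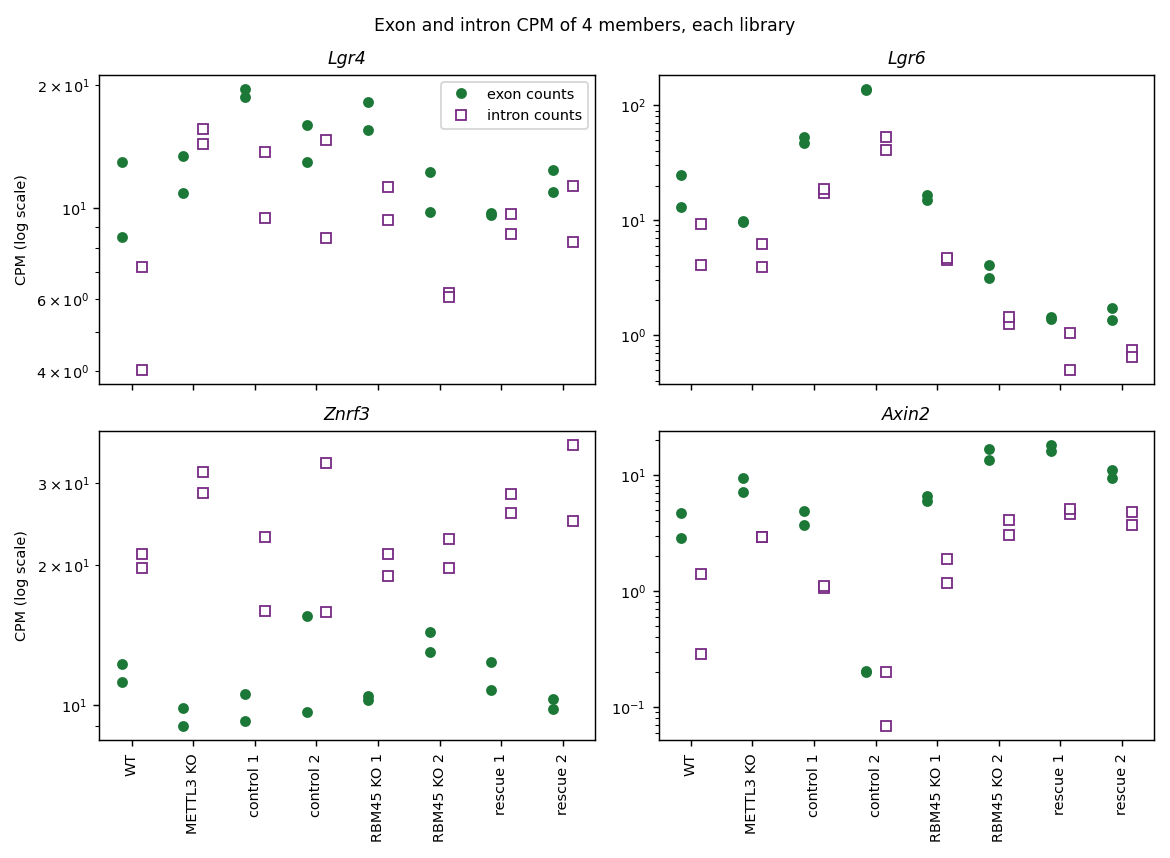
Exon CPM (filled circles) and intron CPM (open squares) of Lgr4, Lgr6, Znrf3 and Axin2 in each library, by line, on log axes. The Lgr4 intron values rise from 4.03 and 7.19 CPM in WT to 14.4 and 15.7 in METTL3 KO, while its exon values overlap between these lines.

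Each exon bin was then set against the remaining bins of its gene. Of 163 member bins 29 had enough counts: 19 of Lgr6, 4 of Znrf3, 3 of Lgr4 and 3 of Axin2. Here the library was the unit in every comparison, so p-values cover the spread between libraries of a line and not that between clones. By edgeR's diffSpliceDGE, 0 of 29 passed in RBM45 KO against control, where 0.0422% of all bins did. At an unadjusted p below 0.05 there were 3 member bins, all of Lgr6. Rescue against RBM45 KO gave 0, with 1 bin at an unadjusted p below 0.05 and 0.0392% of all bins passing. METTL3 KO against WT also gave 0, with 1 at an unadjusted p below 0.05 and 0.0137% of all bins passing. The tested Lgr6 bins held 0 to 21 counts in rescue and 3 to 52 in METTL3 KO. In RBM45 KO they held 91 and 111 counts in the 2 bins of the last exon and 6 to 20 in the others. In all 3 comparisons 0 passing therefore says little about the Lgr6 bins with so few counts. DESeq2 was not run on bins.

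The share of Lgr6 exon counts in its last exon, a choice made after its values were seen and not tested, was 38.9% in control clone 1 (exact 95% interval 36.6 to 41.2, of 1759 counts) and 39.1% in control clone 2 (37.4 to 40.7, of 3431). It was 47.9% in RBM45 KO clone 1 (42.3 to 53.4, of 326) and 50.5% in RBM45 KO clone 2 (39.9 to 61.2, of 91). WT lay at 42.9% (37.6 to 48.4, of 340) and METTL3 KO at 36.3% (30.3 to 42.7, of 245). The rescue clones, at 41.9% of 43 counts and 46.8% of 47, had intervals of 27.0 to 57.9 and 32.1 to 61.9 that cover all other lines. Intervals cover counting error only, and a read that touches 2 bins is counted in each.

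**Figure D4:**
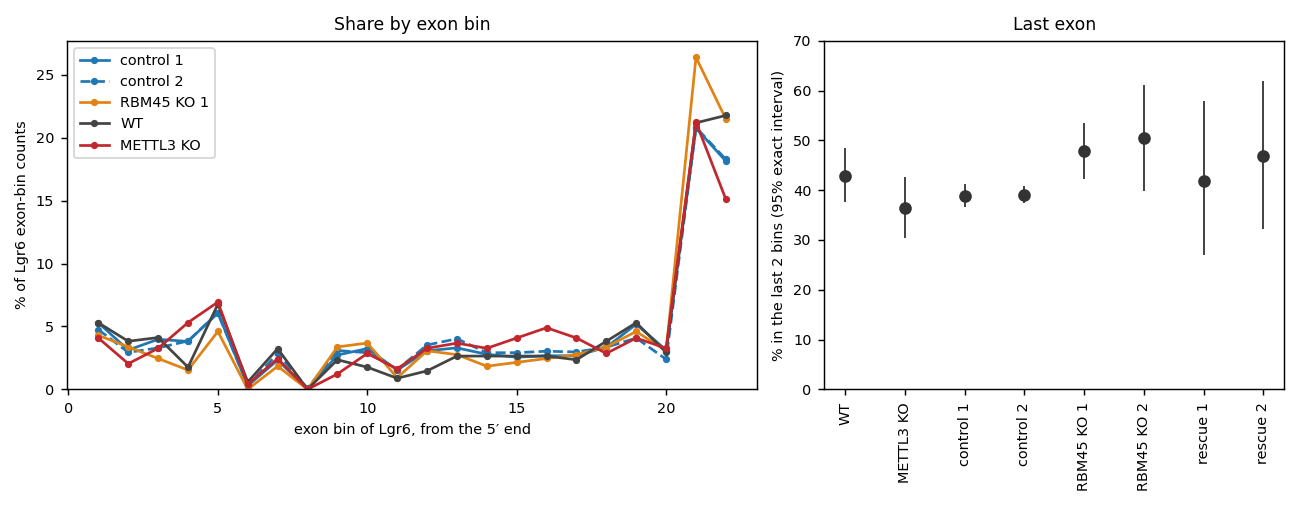
Left, share of Lgr6 exon-bin counts (percent) in each exon bin, from the 5′ end, in the 5 lines with the most Lgr6 counts. Right, share in the last 2 bins, the last exon, in all 8 lines, with exact 95% intervals: points lie between 36.3% and 50.5%.

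Other genes of the pathway, 98 in 8 lists, were counted for comparison; the lists were drawn up with earlier results of these data known. In METTL3 KO against WT, 31 of 66 tested pathway genes passed, 21 higher and 10 lower, beside 22.9% of all genes. The 21 include Cdx2, which met the low-count filter only through METTL3 KO. The median log2 change was 0.16 for the pathway genes and 0.01 for all genes. Of 14 Wnt receptors and co-receptors 5 rose and 0 fell. Fzd7, a Frizzled receptor, rose from 15.7 ± 1.25 to 42.1 ± 2.95 CPM (SD, n = 2), and the co-receptor Lrp5 rose from 17.6 ± 1.23 to 39.5 ± 5.99 CPM (n = 2). Fzd4 rose by 1.38 and Fzd2 by 0.72 on the log2 scale.

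Of 6 tested secreted and membrane antagonists 3 rose and 0 fell. Sfrp1, a secreted Frizzled-related protein that binds Wnts, rose from 8.14 ± 5.999 to 50.2 ± 11.6 CPM (SD, n = 2). Dkk3, of the Dickkopf family, rose by 1.75 and Notum, an enzyme that strips the lipid from Wnts, by 1.34 on the log2 scale. Among 12 nuclear factors 5 rose and 2 fell, with Pygo1 at 3.51 and Tle2 at 1.14, and with Pygo2 at -0.89 and Tle1 at -0.67. Of 14 cytoplasmic genes 3 rose and 3 fell, among them Btrc at 1.01, Gsk3a at -0.80, Dvl1 at -0.86 and Axin1, the constitutive relative of Axin2, at -0.45.

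Of 9 other targets and feedback genes 3 rose and 3 fell. Smoc2 rose by 2.19 and Nkd2, an inhibitor that binds Dishevelled as Dact1 does, by 2.25 on the log2 scale, while Myc was lower at -0.92. Cdx2, a gut transcription factor, was at 2.22 ± 0.205 CPM in METTL3 KO (SD, n = 2) and at 0 and 0.300 in the WT libraries. It was at 0 in all control, RBM45 KO and rescue libraries. Like Dact1 and Rspo2, Cdx2 thus met the low-count filter only through METTL3 KO and had to differ there. It stays in the counts of pathway genes passing here, above and beside control. Outside METTL3 KO, Nkd2 exceeded the filter's cutoff of 0.776 CPM only in the higher WT library (2.02 CPM). Of 7 tested ligands Wnt9a rose by 1.32, Wnt7a fell by 1.45 and Wnt5b fell by 0.64 on the log2 scale. Porcn, which attaches the lipid to Wnts, rose by 1.10. The relatives of the members were not among those called: Rspo1 had 3 counts and Rspo4 34 in all libraries, and Dact2 and Dact3, at 0.476 to 13.1 and 4.48 to 8.78 CPM, did not pass.

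Beside control, METTL3 KO had 27 pathway genes higher and 12 lower of 66, beside 16.1% and 14.5% of all genes. Cdx2, which met the low-count filter only through METTL3 KO, is among those higher. Control had 5 higher and 9 lower than WT, beside 3.19% and 5.79%. Sfrp1, Dkk3 and Notum were lower in control than in WT (-4.27, -1.39 and -1.28 on the log2 scale) and higher in METTL3 KO than in control (6.97, 3.14 and 2.62). Their order over WT, METTL3 KO and control is the one given above for Rspo3. Fzd7 was higher in control than in WT by 0.92. In the 3 comparisons of the 6 clones 0 of 64 tested pathway genes passed by edgeR, where 0% of all genes did.

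**Figure D5:**
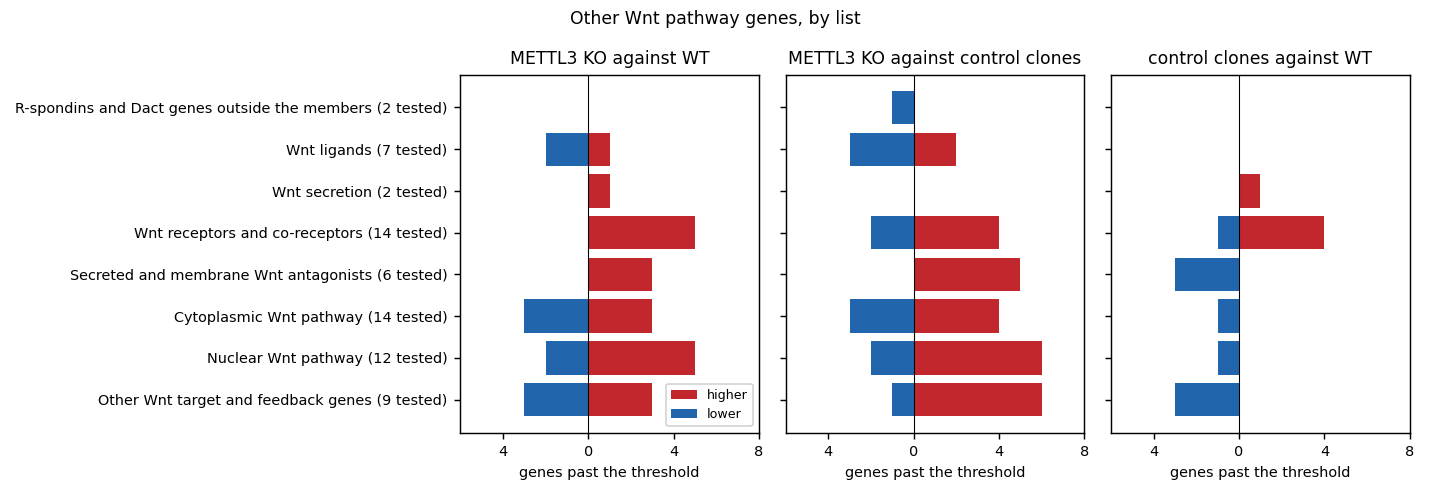
Number of pathway genes higher (right) and lower (left) at an edgeR adjusted p below 0.05, by list, for METTL3 KO against WT, METTL3 KO against control and control against WT. Receptors and antagonists in METTL3 KO against WT have 5 and 3 genes higher and 0 lower.

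The genes whose level followed each member most closely over the 8 lines were found by Pearson's r of mean log2 CPM among 11678 genes. These are descriptions over 8 points that share their libraries. Lgr6 was followed by Lama3 (r = 0.986), a laminin chain, then Larp4 and Pgap1. Axin2 was followed by Zfp324 (r = 0.988), Zfp219 and Prss36. Znrf3 was followed by Phf21a (r = 0.989), Sdhaf3 and Ldlrad3, and Rnf43 by Uck2 (r = 0.989), Ptprn and Nsdhl. Lgr4 was followed by Swt1 (r = 0.985), Gpatch2 and Nck2, and Rspo3 by Pgam2 (r = 0.980), Orai2 and Adcy3. For Rspo2 they were Slc12a8 (r = 0.971), Ankmy2 and Igdcc4, and for Dact1 Slc9a2 (r = 0.981), Dmbx1 and Sh2b2. Larp4 spanned 0.71 on the log2 scale over the lines, and Lama3 4.97.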

How the data were processed

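RNA-seq of 16 libraries was used as 3 tables of counts. The authors deposited raw fragment counts per gene (whole gene body), exon bin and intron; per the file headers they were made with featureCounts v1.6.3 with a minimum overlap of 0.1 and strand option 1, on a flattened Ensembl annotation of GRCm38 (introns: RefSeq on mm10). Per the labels, the kit does not keep strand. HISAT2 2.1.0 and mm10 are named in the submitters' processing notes. Symbols matched 53174 of 53333 rows.

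From the counts, edgeR 4.0.16 (TMM, filterByExpr, quasi-likelihood test, Benjamini-Hochberg, threshold 0.05; R 4.3.3, limma 3.58.1) was fitted to all 16 libraries in 8 groups, and for RBM45 KO, rescue and control to 6 clones with libraries summed. The clone fit has 3 residual degrees of freedom, the library fit 8. For exon bins averaging 10 counts or more, diffSpliceDGE was used on the fit to all 16 libraries. Alternatives were DESeq2 1.42.0, no filter, summed exon bins, library sizes without 12 dominant rows, each library or clone left out, a replicate block, and the library as unit. The fits were tested on simulated data. The columns of the control clones match no label by name and were taken as control because the other 12 columns match the other groups. Members and lists were chosen with earlier results of these data known. All 9 members were named, then up to 4 genes per list and comparison with the smallest p among those passing, and 3 most similar genes per member. Depth limits members under about 10 counts, where a floor of 3 counts or a 95% counting interval is given. Lgr6 in contrasts of groups that bear on its selection, and Dact1 and Rspo2 in METTL3 KO contrasts, were left out of counts of members passing after the data were seen. Lgr6 between clones of 1 genotype, and Rspo3 in contrasts with control as a group, stayed in these counts.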

Additional observations from a re-analysis of the deposited data

Results flagged for a closer look

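In 3 cases a single library stood apart from the other 3 libraries of its group, all at 0 counts. Lgr5 was at 0.0522 CPM in control clone 1 library 2, which is 1 count. Lgr5 was also at 0.259 CPM in RBM45 KO clone 1 library 2, from 3 counts. Dact1 was at 0.134 CPM in rescue clone 2 library 1, from 2 counts. With the other 3 libraries at 0, any count in the fourth sets it apart, so these values say nothing beyond their counts, which are 3 or fewer.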

How the results depend on the processing

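Changes with 3 counts or fewer in a group, and those given without a test, are left out here. Rspo3 in comparisons with control as a group, and Lgr6 between clones, are kept. The 45 remaining log2 changes of members were recomputed 837 times, of which 774 kept their direction and side of the threshold, 18 lost a call, 16 gained one and 29 changed sign, of which 0 were past the threshold. With the library as the unit, 2, 2 and 4 members passed for RBM45 KO against control, rescue against RBM45 KO and rescue against control, beside 0 by clone. With a replicate block added, chosen after seeing the data, they were 2, 2 and 4 again. The replicate block left the other counts at 4, 3, 2, 3, 5 and 0. Libraries of the same number deviated together in some pairs of lines and not in others (28 pairs, r from -0.47 to 0.67, median 0.15, 15 above 0.1). Whether the library numbers mark a batch was not tested. DESeq2 called 3 members between RBM45 KO clones; exon bins summed gave 2 there. Leaving out each library or clone gave 3 to 4 in METTL3 KO against WT, 2 to 3 in control against WT, 2 to 3 in METTL3 KO against control, 2 to 3 between control clones and 2 to 5 between RBM45 KO clones. The cause was not tested. Exon bins: 0 in every alternative. Genes called overall differed by over 1.5 times in the clone fits: 0 by edgeR against 4, 38 and 456 by DESeq2 and 2512, 2919 and 5565 by library (2746, 3214 and 5814 with the block). Between rescue clones they were 371, and 632 with no filter. Leaving out a library gave 1747 to 4213 genes for METTL3 KO against WT, 435 to 2123 for control against WT, 2768 to 5379 for METTL3 KO against control, 1750 to 3482 between control clones, 1271 to 2513 between RBM45 KO clones and 106 to 467 between rescue clones.

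Sign changes with exon bins summed were Znrf3 at 0.024 (RBM45 KO against control), -0.063 (rescue against RBM45 KO), -0.039 (rescue against control), -0.15 (METTL3 KO against WT), -0.016 (control against WT), -0.13 (METTL3 KO against control) and -0.18 (rescue clones), Rnf43 at -0.30 (METTL3 KO against WT) and -1.73 (rescue clones), and Lgr4 at -0.32 (METTL3 KO against control). On leaving out a library or clone, log2 changes that crossed 0 ranged for Rnf43 from -0.37 to 0.90 (METTL3 KO against WT), -0.78 to 0.72 (RBM45 KO against control) and -0.017 to 0.69 (rescue clones). For Lgr4 they ranged from -0.070 to 0.20 (METTL3 KO against control), -0.50 to 0.040 (control clones), -0.059 to 0.13 (rescue clones) and -0.41 to 0.30 (rescue against RBM45 KO). For Znrf3 they ranged from -0.22 to 0.24 (control against WT), -0.22 to 0.69 (control clones), -0.17 to 0.26 (rescue clones) and -0.28 to 0.10 (RBM45 KO against control). For Axin2 the range was -0.040 to 1.33 (rescue against RBM45 KO). Depth limits Lgr5, Rspo2 and Dact1, whose values outside METTL3 KO rest on 8 counts or fewer in a library.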

Other observations

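Other pathway genes differed between clones of 1 genotype as well. Between the control clones 12 of 66 tested pathway genes were higher in clone 2 and 11 lower by the edgeR test, together 34.8% beside 19.6% of all genes. Dact2, a relative of Dact1, was higher by 2.49 on the log2 scale, and Wnt5a, a ligand known mainly for signalling without β-catenin, was lower at -2.01. Between the RBM45 KO clones 8 were higher in clone 2 and 9 lower, together 25.8% beside 14.1% of all genes. There the repressor Tle4 was higher by 2.47 and Lef1, a partner of β-catenin, lower at -1.71. Fzd7 was lower at -2.21 and Wnt5a at -1.52. Between the rescue clones 3 were higher and 3 lower, together 9.09% beside 2.29% of all genes, among them Fzd7 higher by 0.84 and Sfrp1 lower at -1.11.

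Prom1, a stem cell marker among the other target genes, was at 6.51 ± 0.162 CPM in WT (SD, n = 2), 5.79 ± 1.99 in METTL3 KO (n = 2), 0.0756 ± 0.0587 in control (n = 4), 0.662 ± 0.662 in RBM45 KO (n = 4) and 0.443 ± 0.362 in rescue (n = 4). WT and METTL3 KO were above all other libraries, as for Rspo3 and, at lower counts, Dact1. It was chosen here after its values were seen.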
